A study of Homo sapiens with 36 samples.

Results

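The 6 genes described here encode the caveolins CAV1, CAV2 and CAV3 and the cavins CAVIN1, CAVIN2 and CAVIN3. Their accessible regions were taken from ATAC-seq peak lists of 36 libraries: overlapping peaks of all libraries were merged into regions (at least 1 bp of overlap), and a region belonged to a gene when the centre of one of its peaks lay in the gene or within 50 kb of either end. This gave 137 of the 259704 regions of the whole series. CAV1 had 45 regions and CAV2 34, of which 28 were shared because the genes lie 16.5 kb apart on chromosome 7, so they are treated as 1 locus of 51 regions. CAV3 had 26 regions, CAVIN1 30, CAVIN2 16 and CAVIN3 14. The rule used positions and no measured level.

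Caveolae are flask-shaped pits of the plasma membrane. CAV1 oligomers form their membrane scaffold outside muscle, CAV2 joins CAV1 in hetero-oligomers, and CAV3 takes the place of CAV1 in muscle. Cavins coat the pit from the cytoplasm: CAVIN1 is needed for caveolae to form, CAVIN2 shapes and stabilises the membrane, and CAVIN3 is linked to the trafficking of caveolar vesicles.

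All libraries came from BT549, an established triple-negative breast cancer line labelled as wild type, with 50000 cells lysed per library. In the GATA6 experiment, cells received a control siRNA pool (siCtl) or a pool against the transcription factor GATA6 (siGATA6, 72 h), then vehicle (Veh) or 500 nM dexamethasone (DEX, a glucocorticoid that activates its nuclear receptor) for 2 h. There were 3 libraries in each of the groups siCtl_Veh, siCtl_DEX, siGATA6_Veh and siGATA6_DEX. The BRM014 experiment used a 4 h exposure to DMSO or to BRM014 at 10 µM, which inhibits BRG1 and BRM, the ATPases of the SWI/SNF chromatin remodelling complex. DEX at 500 nM was present for 4 h or absent, and DMSO, DEX_DMSO, BRM014 and DEX_BRM014 had 4 libraries each. The remaining experiment set a double knock-down of BRG1 and BRM (siBRG1_siBRM) beside control siRNA alone (siCtl_only), with 4 libraries each and a duration that the labels do not give. The titles number biological replicates of 1 cell line, so the p-values below measure the spread between such libraries. Depletion of GATA6, BRG1 or BRM cannot be checked in peak lists, which hold no RNA or protein level. MDA-MB-231 cells, also named in the design, were not analysed here.

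Libraries held 37184 to 131423 peaks, and read depth is not recorded in peak lists. The background level recovered from the peaks ranged from 0.492 to 0.677 in the GATA6 experiment and from 0.235 to 0.335 in the others, so values were compared within experiments. BRM014 libraries averaged 53586 peaks against 94069 in DMSO, and siBRG1_siBRM libraries averaged 50934 against 85769 in siCtl_only. Replicate 1 of siBRG1_siBRM, with 66607 peaks, was the highest of its group and replicate 3, with 37184, the lowest. All 36 libraries had a peak within 1000 bp of an end of the mesenchymal genes VIM, CDH2, SPARC and FN1, and none had one at the hormone receptor genes ESR1 and PGR, the endothelial genes PECAM1 and CDH5, or the muscle genes DES and MYH7. The leukocyte genes PTPRC and CD3E had one in 30 and 16 libraries, MYOD1 in 13, the epithelial gene CDH1 in 21, and the adipocyte genes ADIPOQ and PLIN1 in 0 and 4. An open gene end does not show that the gene is transcribed.

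Promoters are shown first, because the start of CAVIN2 had no peak in some groups while the starts of CAV1 and CAV2 had a peak in every library. Each run is the 250 bases before a RefSeq start site (GRCh38.p14), written along the gene. Capitals mark matches on either strand to GGGCGG (the GC box bound by SP1-type factors) in CAV1 and CAV2, to CCAAT in CAV3 and to GGAATG (the core motif of TEAD factors) in CAVIN2. RefSeq promoter entries were found for 4 of the 6 genes, and CAVIN1 and CAVIN3 are named only. Positions are counted from the start site, with bases before it negative.
CAV1, first start, chr7:116524759-116525008, plus strand: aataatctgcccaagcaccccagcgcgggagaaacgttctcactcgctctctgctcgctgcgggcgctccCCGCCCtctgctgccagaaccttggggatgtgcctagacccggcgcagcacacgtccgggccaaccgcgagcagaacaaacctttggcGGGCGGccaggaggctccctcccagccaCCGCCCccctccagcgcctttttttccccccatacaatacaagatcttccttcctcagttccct
CAV1, inner start, chr7:116526112-116526361, plus strand: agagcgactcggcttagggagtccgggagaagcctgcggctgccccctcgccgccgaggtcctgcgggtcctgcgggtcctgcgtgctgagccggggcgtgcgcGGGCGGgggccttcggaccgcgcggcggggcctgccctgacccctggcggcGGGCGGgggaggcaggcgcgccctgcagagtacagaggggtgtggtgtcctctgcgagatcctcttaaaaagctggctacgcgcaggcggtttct
CAV2, first start, chr7:116499488-116499737, plus strand: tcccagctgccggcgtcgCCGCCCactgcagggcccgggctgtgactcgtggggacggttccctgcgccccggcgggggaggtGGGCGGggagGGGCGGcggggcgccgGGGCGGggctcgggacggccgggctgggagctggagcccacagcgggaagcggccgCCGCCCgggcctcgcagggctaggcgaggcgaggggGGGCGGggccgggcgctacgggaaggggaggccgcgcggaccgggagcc
CAV3, chr3:8733552-8733801, plus strand: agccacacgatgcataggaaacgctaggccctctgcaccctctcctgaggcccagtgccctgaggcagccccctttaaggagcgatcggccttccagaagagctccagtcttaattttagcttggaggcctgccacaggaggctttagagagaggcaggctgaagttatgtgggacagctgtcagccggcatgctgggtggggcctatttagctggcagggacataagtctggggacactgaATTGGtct
CAVIN2, chr2:191847089-191847338, minus strand: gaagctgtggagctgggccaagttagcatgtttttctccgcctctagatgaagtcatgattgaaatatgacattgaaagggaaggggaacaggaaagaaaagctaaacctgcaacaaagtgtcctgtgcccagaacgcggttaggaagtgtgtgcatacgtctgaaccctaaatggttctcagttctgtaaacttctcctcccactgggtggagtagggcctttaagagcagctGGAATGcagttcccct

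The CAV2 promoter had a GC content of 83.2% with 6 GC boxes, the first CAV1 promoter 63.6% with 3 and the inner CAV1 promoter 73.2% with 2, where the median over 34788 promoters was 58.0%. CAV3 was at 57.2% and CAVIN2 at 48.0%, and neither window held GGGCGG, which 42.6% of all promoters held. GGAATG began at position -16 of the CAVIN2 start and was in 11.9% of all promoters. CCAAT, on the reverse strand, began at position -8 of CAV3 and was in 32.0%. Other motifs searched on both strands had no match in the 5 printed windows. They were the inverted repeat of the glucocorticoid response element in a strict form (in 0.00287% of all promoters) and a looser form (0.328%), the AP-1 motif TGANTCA (6.59%), the motif of GATA factors, AGATAA (9.21%), and the TATA box, TATAAA (10.8%). These are letter matches and not measured binding.

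The loci differed in how often their regions recurred, as the map of the 5 loci shows. Of the 137 regions, 16 were held in all 36 libraries (11.7%, against 9.23% of all regions), where a library holds a region when one of its peaks overlaps it, and 29 were held in 1 library (21.2%, against 33.6%). CAVIN3 had 4 of 14 regions in all libraries, CAVIN1 4 of 30, CAVIN2 2 of 16, CAV1 and CAV2 5 of 51 and CAV3 1 of 26. Of the CAV3 regions, 10 of 26 were seen in 1 library, against 2 of 30 at CAVIN1.

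**Figure D1:**
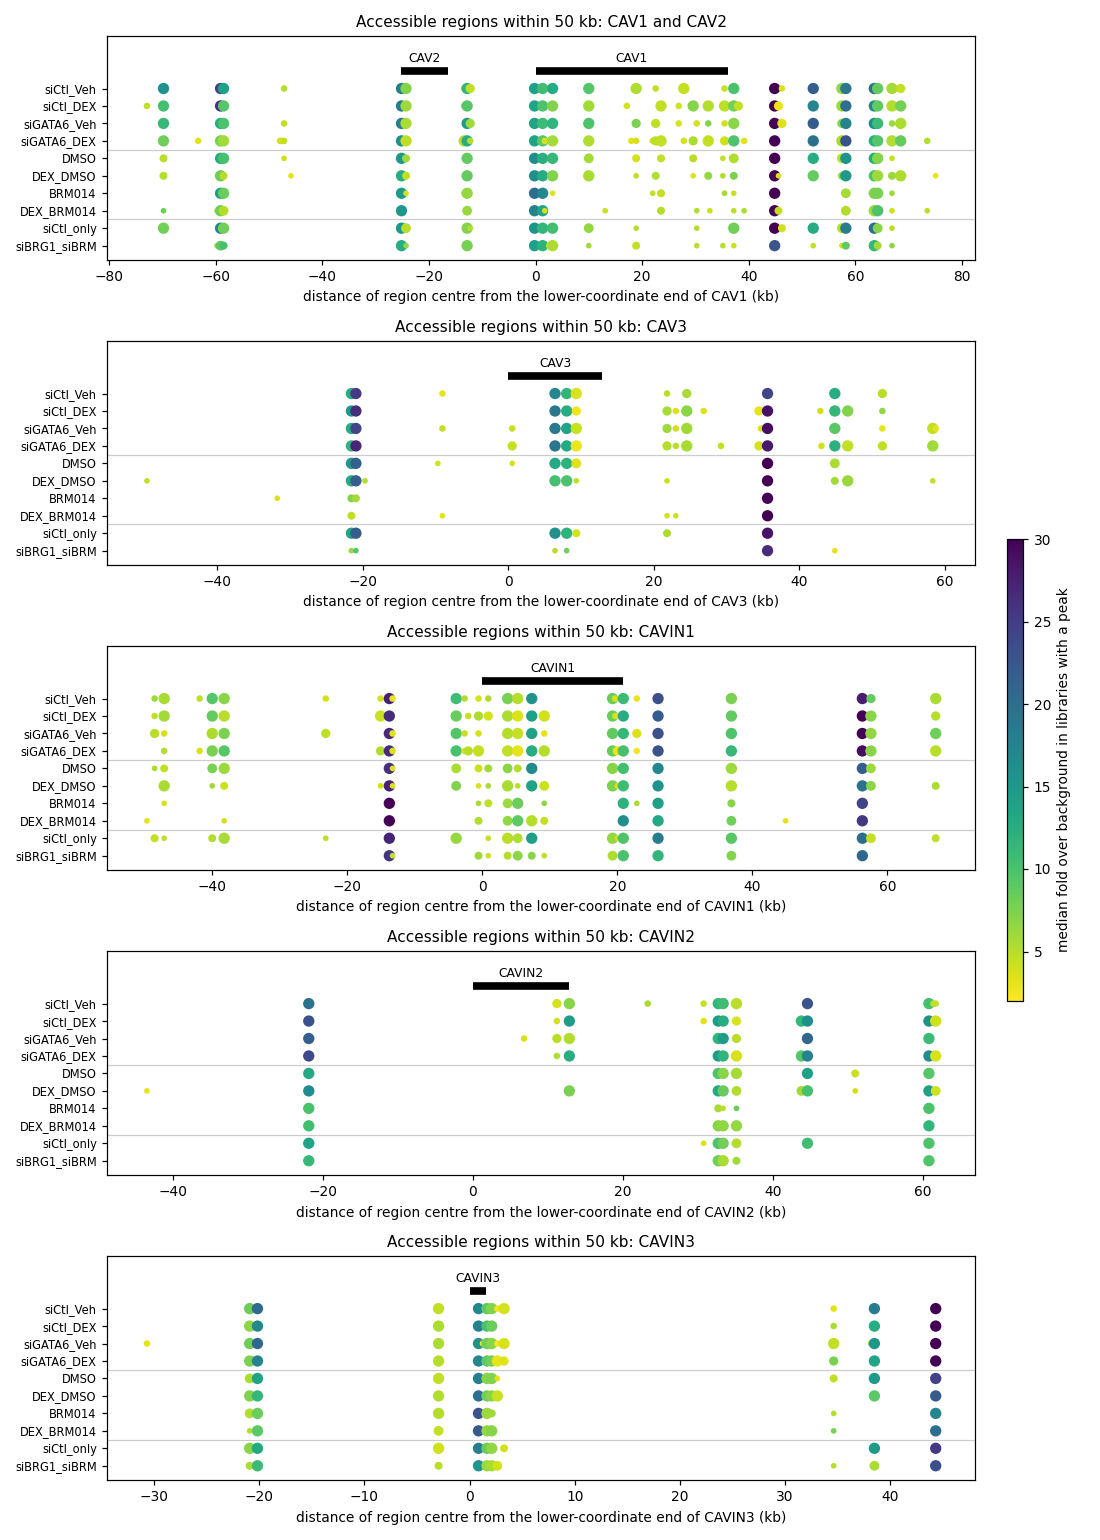
Each panel shows the regions of a locus by distance in kb from the lower-coordinate end of the named gene, with 1 row per group. Dot size is the share of libraries with a peak, colour is the median fold over background, and lines separate the 3 experiments. CAV3 rows thin to few dots with BRM014, while the dots at the lower ends of CAV1 and CAV2 are full size in all 10 groups.

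Peak height is given as the fold enrichment at the summit that the authors' peak caller wrote for each peak. It is each peak's own value in its own list, it equals the reads piled up plus 1 over the background plus 1, and it moves with depth, so it is described here and not tested. Background levels of DEX and vehicle libraries overlapped, at 0.492 to 0.66 in siCtl_DEX and 0.576 to 0.651 in siCtl_Veh, and at 0.252 to 0.297 in DEX_DMSO and 0.241 to 0.305 in DMSO. In siGATA6 cells they were 0.522 to 0.677 with DEX and 0.512 to 0.587 in vehicle. The mean was lower in siGATA6_Veh, 0.54, than in siCtl_Veh, 0.601, and whether this moved the fold was not tested. At the first CAV1 start, region chr7:116524395-116525263 had a peak in all 36 libraries, with a fold of 12.8 at the lowest, 15.5 at the median and 20.4 at the highest. Its summits lay at a median position of -344 from that start site (lowest -378, highest -200). The inner CAV1 start had its own region, chr7:116526103-116526586, with a fold of 9.24 to 17.3 and summits at a median position of -65. Here BRM014 libraries read 17.3, 17.2, 16.2 and 16.7 and DMSO libraries 10.8, 13.2, 11.4 and 12.9. All BRM014 values were above all DMSO values. Over the members, 2 of 21 regions held by both groups were wholly above and 4 wholly below with BRM014 (3.39% and 23.4% of all such regions), and with DEX present 2 and 5 of 22 (5.88% and 23.6%).

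The CAV2 start region chr7:116499291-116500455 was held by all 36 libraries at a fold of 9.21 to 18.8 (median 15.6), with summits at a median position of -67. CAVIN1 had such a region at its higher-coordinate end, chr17:42423117-42423555, at 7.68 to 17.2 (median 10.9). CAVIN3 had chr11:6320364-6320840 at its higher-coordinate end, at 4.12 to 10.1 (median 7.78), and chr11:6319509-6320083 within the gene at 12.0 to 26.7 (median 18.0). These ends were open in every treatment group. CAV3, the muscle caveolin, stood apart: its start site and the 250 bases before it overlapped no region in any library. Within 1000 bp after that start, chr3:8734290-8734422 had low peaks in few libraries. These were siGATA6_Veh replicate 3 (4.41), siGATA6_DEX replicates 1 and 3 (4.6 and 4.4) and DMSO replicate 4 (3.83).

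CAVIN2 was the member whose start had a peak in some groups and none in others, and part of this followed the experiment. Without DEX, every siCtl_Veh library had a peak there and no DMSO or siCtl_only library did. Region chr2:191846826-191847517 covers the start and the promoter printed above, and was held in 16 libraries. In siCtl_Veh its fold was 6.98, 6.98 and 9.09, and in siCtl_DEX it was 9.53, 15.3 and 14.5. In siGATA6_Veh it was 5.26, 3.97 and 5.67, and in siGATA6_DEX 12.4, 16.4 and 9.33. Every DEX value was above every vehicle value in both siRNA settings, and the siGATA6_Veh values were all below the siCtl_Veh values. The mean background level was also lower in siGATA6_Veh, at 0.54 against 0.601 in siCtl_Veh. Of all regions held by both groups, 6.95% had DEX wholly above vehicle in siCtl cells and 10.1% wholly below. In siGATA6 cells these shares were 9.1% and 7.93%. With siGATA6 in vehicle, 7.57% of all such regions were wholly below and 4.94% wholly above. In the BRM014 experiment no DMSO library had a peak there, all 4 DEX_DMSO libraries had one, at 10.0, 7.19, 5.43 and 7.97, and no BRM014, DEX_BRM014, siCtl_only or siBRG1_siBRM library had one. Summits lay at a median position of -38.5 from the start (n = 16).

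Presence of a peak at the CAVIN2 start did not pass the test for DEX over its 4 settings described next (exact stratified permutation p = 0.0286, adjusted p = 0.464), because every library of the GATA6 experiment held it. For BRM014 the adjusted p was 0.0928 in the same exact test, with 0 of 8 treated and 4 of 8 control libraries holding the region. Whether BRM014 altered the DEX difference at this start was not tested.

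**Figure D2:**
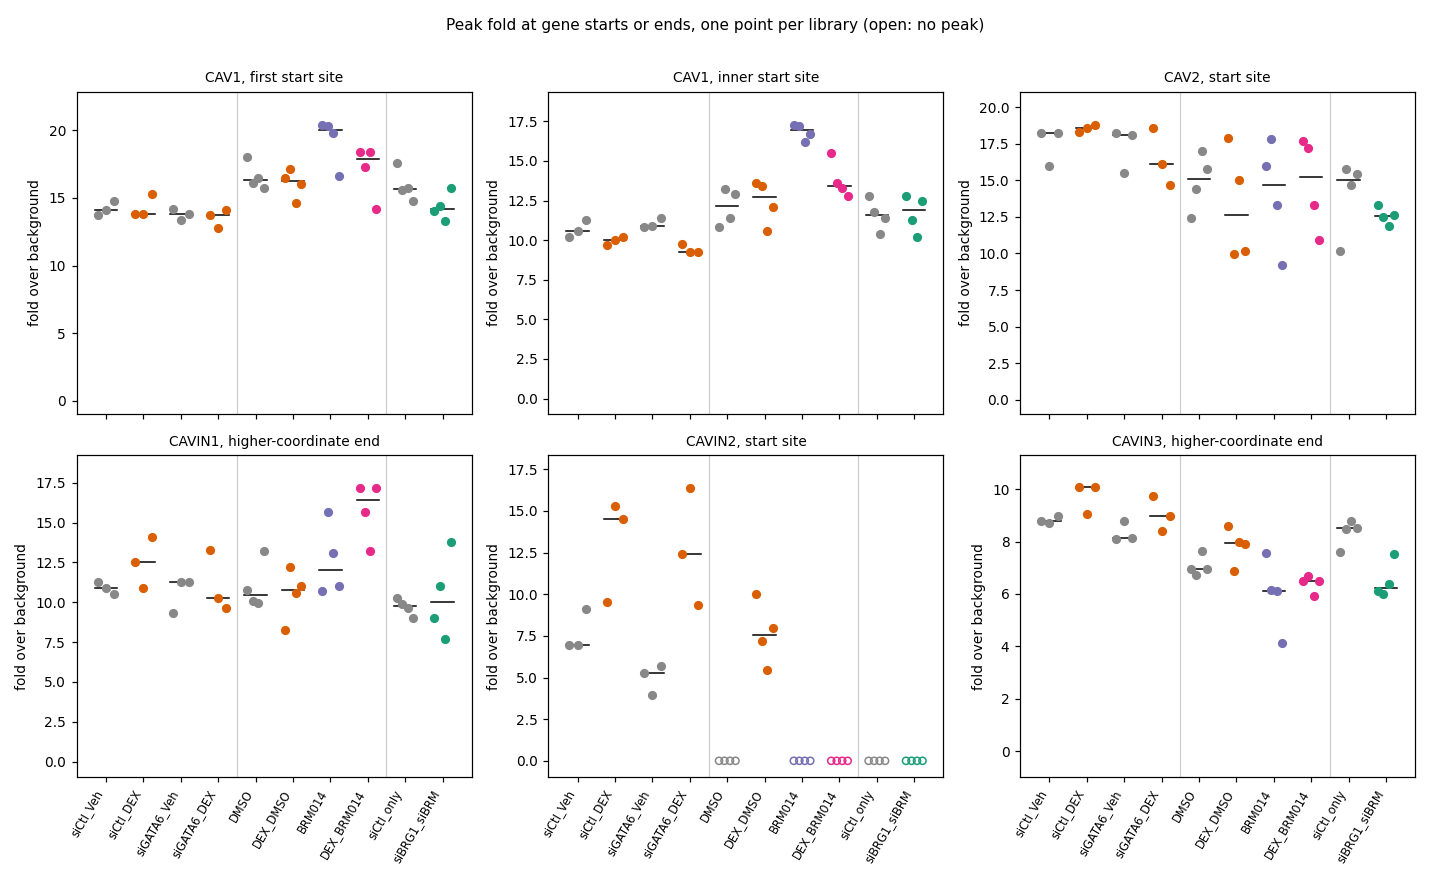
Points are the fold over background of each library at the start or end regions of CAV1, CAV2, CAVIN1, CAVIN2 and CAVIN3, open points at 0 are libraries with no peak, and short lines are medians of libraries with a peak. The CAVIN2 panel alone has open points, in 5 of the 6 groups of the BRM014 and siBRG1_siBRM experiments.

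Across the members, most called regions belonged to BRM014, and all of those were held in fewer libraries. Presence was tested with a two-sided exact stratified permutation test, which reassigns libraries between treated and control within each setting, with Benjamini-Hochberg adjustment over every region of the series held in at least 4 libraries of the test. With BRM014, over the settings without and with DEX, 11 of 62 tested member regions were held in fewer libraries at an adjusted p under 0.05 (17.7%, against 22.4% of all regions tested) and 0 in more (0.116% of all). The members' share is below the genome-wide share. The 11 were 3 at CAV1 and CAV2, 3 at CAV3, 3 at CAVIN1, 1 at CAVIN2 and 1 at CAVIN3, and 5 of them lay inside a member gene. None was at a printed promoter. The smallest p this test can give is 0.000408, adjusted 0.00429. With an equal number of best peaks taken from every library, 6 were called in place of 11. Not all of these were among the 11, of which 4 were called again and 1 no longer passed. The share of all regions called also fell with this cut, as given in the closing section.

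DEX, tested over the siCtl, siGATA6, DMSO and BRM014 settings, gave 2 of 89 member regions held in more libraries (2.25%, against 1.45% of all) and 0 in fewer (0.0455% of all). The 2 were 1 region each near CAV3 and CAVIN2, and neither passed with peaks of −log10 q of at least 5 alone, or when peaks had to cover at least 50% of a region. With siGATA6, 0 of 82 member regions were called in the exact test in either direction (0% of all regions, lowest adjusted p 1.0), and 1 had an unadjusted p under 0.05. With siBRG1_siBRM, 0 of 47 were called by Fisher's exact test (0% of all, lowest adjusted p 0.227), and 4 had an unadjusted p under 0.05, all lower, the smallest p that 4 against 4 can give being 0.0286.

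A simpler count took regions with a peak in every library of one group and in none of the other, called gained or lost. DEX at 2 h gained 6 of 104 member regions in siCtl cells (2.52% of all regions) and lost 3 (0.817%), and in siGATA6 cells gained 5 of 111 (2.36%) and lost 0 (0.595%). DEX at 4 h gained 3 of 86 in DMSO (1.56%) and lost 0 (0.434%), and with BRM014 gained 1 of 63 (0.323%) and lost 0 (0.155%). BRM014 lost 8 of 73 without DEX (11.3%) and 14 of 93 with DEX (11.6%), and gained 0 in both (0.041% and 0.0761%). siBRG1_siBRM lost 4 of 73 (6.73%) and gained 0 (0.0282%). siGATA6 gained 1 and lost 1 of 100 in vehicle (0.459% and 0.806%), and gained 2 and lost 0 of 110 in DEX (0.677% and 0.71%). When each library was cut to the same number of strongest peaks, DEX at 2 h gained 1 region in siCtl cells in place of 6. BRM014 then lost 4 in place of 8 without DEX and 3 in place of 14 with it. For these counts the share of all regions called after the cut is not given. Whether any of these counts reflects a change particular to the members was not tested. The share of members gained with DEX at 2 h in siCtl cells, 5.77%, rests on 6 regions. Without siBRG1_siBRM replicate 1 the count lost with siBRG1_siBRM was 10 instead of 4, without siGATA6_Veh replicate 3 the gain with DEX in siGATA6 cells was 9 instead of 5, and without DEX_DMSO replicate 3 the gain at 4 h was 5 instead of 3. Comparisons that use the same libraries, such as DEX at 4 h in DMSO and BRM014 with DEX, which share DEX_DMSO, are not independent.

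At CAV1, the scaffold caveolin, 1 region inside the gene had lower peaks with DEX in 3 settings. Region chr7:116528088-116528324 had a fold of 13.1, 12.8 and 12.5 in siCtl_Veh and 7.54, 7.17 and 7.26 in siCtl_DEX. In siGATA6 cells it was 11.8, 11.1 and 12.8 in vehicle and 6.42, 5.54 and 5.79 with DEX. At 4 h DMSO libraries read 12.1, 13.4, 9.97 and 10.3, and DEX_DMSO libraries 6.78, 7.29, 8.79 and 7.26. The groups did not overlap in any of these settings, with DEX always lower. Of all regions held by both groups, 10.1% were wholly below with DEX in siCtl cells and 6.95% wholly above. These shares were 7.93% and 9.1% in siGATA6 cells, and 7.24% and 4.03% at 4 h in DMSO. BRM014 left a peak in 1 of 4 libraries (3.43) and DEX_BRM014 in none, which passed the test for BRM014 (adjusted p = 0.0127, exact test). With siBRG1_siBRM all 4 libraries kept a peak, at 5.88, 4.99, 4.77 and 6.42, all below the siCtl_only values of 9.08, 10.5, 12.2 and 10.4. Over the members 4 of 21 shared regions were wholly below with siBRG1_siBRM and 0 above (22.5% and 0.467% of all).

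At 2 other CAV1 regions peaks were lost with BRM014. At chr7:116576767-116577437, 15.6 kb beyond the higher end of CAV1 in the RNA gene COMETT, the fold was 11.8, 13.1, 8.27 and 16.0 in DMSO and 8.51, 9.15, 8.97 and 7.44 in DEX_DMSO, and no BRM014 or DEX_BRM014 library had a peak (adjusted p = 0.00429, exact test). One of the 4 siBRG1_siBRM libraries, replicate 1, had a peak there. Inside CAV1, chr7:116534842-116535154 was held in 7 of 8 libraries without and 0 of 8 with BRM014 (adjusted p = 0.0127, exact test; 0.164 when peaks had to cover at least 50% of the region). The highest region of the locus, chr7:116569518-116570213, 8.33 kb beyond CAV1, was held by all 36 libraries at a median fold of 32.8. Its siBRG1_siBRM values of 23.8, 21.3, 20.9 and 25.1 lay below all siCtl_only values, 32.6, 34.6, 33.8 and 34.1.

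Inside and beyond CAV1, DEX libraries had peaks that vehicle libraries of the same setting lacked. Region chr7:116548345-116548752 was empty in all 6 vehicle libraries of the GATA6 experiment and held by all 6 DEX libraries, at 4.7, 4.68 and 5.7 in siCtl_DEX and 4.68, 5.23 and 3.99 in siGATA6_DEX. At 4 h the order was different, with a peak in 2 DMSO libraries and in no DEX_DMSO library, so the region did not pass the DEX test (adjusted p = 1.0, exact test). Regions chr7:116554365-116554793 and chr7:116557332-116557490 were gained with DEX in siCtl cells, and in siGATA6 cells 2 and 3 DEX libraries held them against 0 and 1 vehicle libraries. At 4 h the first was held by 2 DMSO libraries (5.44 and 4.57) and 1 DEX_DMSO library (3.53), and the second by 0 and 2. Beyond the gene, chr7:116593171-116593840 had no peak in DMSO and 4.75, 6.07, 6.57 and 3.46 in DEX_DMSO, and none with BRM014 or DEX_BRM014. In the GATA6 experiment 5 of 6 vehicle libraries held it, at 3.83 to 8.13, and all 6 DEX libraries, at 6.38 to 10.6. In the other direction, chr7:116543792-116543983 and chr7:116552718-116552925, both inside CAV1, were lost with DEX in siCtl cells, and the second was lost with siGATA6 in vehicle too. These regions were low, with a median fold over the libraries that held them of 4.37 to 6.38.

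Around CAV2, the partner of CAV1, chr7:116511532-116511727, 2.99 kb beyond its higher end, was gained with DEX in siGATA6 cells, at 4.96, 3.93 and 6.92, while 1 library each of siCtl_Veh and siCtl_DEX held it. On the other side, chr7:116455054-116455411 in the RNA gene CAV2-DT was lost with siBRG1_siBRM, from 6.44, 9.74, 5.27 and 9.84 to no peak. A further region in CAV2-DT, chr7:116465791-116466079, was named after its values were seen. Its fold was 24.4, 21.0 and 24.4 in siCtl_Veh and 29.0, 25.8 and 21.3 in siCtl_DEX, against 12.6, 11.0 and 13.3 in siGATA6_Veh and 7.8, 5.37 and 11.7 in siGATA6_DEX. All 6 siGATA6 values lay below all 6 siCtl values, with a peak in every one of the 12 libraries. Of the member regions held by both groups, 6 of 51 in vehicle and 8 of 59 in DEX had siGATA6 values wholly below siCtl (7.57% and 5.76% of all such regions), and 2 of 51 and 6 of 59 wholly above (4.94% and 6.95%).

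CAV3 had 3 regions called with BRM014, and 2 of them were inside the gene. There, chr3:8739967-8740512 read 12.8, 14.2, 13.3 and 11.5 in DMSO and 9.03, 11.2, 10.4 and 10.4 in DEX_DMSO, and chr3:8741454-8742231, which also overlaps OXTR, the oxytocin receptor gene, read 10.0, 14.5, 11.6 and 12.2 in DMSO and 13.2, 10.1, 9.66 and 8.52 in DEX_DMSO. Neither had a peak in any BRM014 or DEX_BRM014 library (adjusted p = 0.00429 each, exact test), and with siBRG1_siBRM 1 of 4 libraries, replicate 1, held each. Before the gene, chr3:8712575-8713175 read 21.7, 26.0, 18.6 and 20.8 in DMSO, 6.47 and 5.15 in 2 BRM014 libraries, and had no peak in the others treated with BRM014 (adjusted p = 0.0313, exact test; 0.0619 with rare regions also tested). The highest region, chr3:8769171-8769725 in OXTR, was held by all 36 libraries at a median of 29.7. There DEX_BRM014 libraries, at 31.8, 34.4, 36.5 and 32.3, were all above DEX_DMSO libraries, at 28.9, 31.5, 30.5 and 31.3. Loss of the 3 regions above was thus not seen at every region of the locus.

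One CAV3 region followed DEX in every setting without BRM014. At chr3:8780310-8780621, 33.6 kb beyond the gene and nearest to OXTR, no vehicle or DMSO library had a peak, while siCtl_DEX libraries read 7.33, 7.75 and 6.48, siGATA6_DEX libraries 6.21, 4.67 and 4.68 and DEX_DMSO libraries 7.1, 9.94, 5.5 and 4.82. All 10 of these DEX libraries held it and all 4 DEX_BRM014 libraries lacked it (adjusted p for DEX = 0.00892, exact test; for BRM014 0.0928). Further out, chr3:8791890-8792421 had a peak in all 6 siGATA6 libraries, at 4.6, 3.97 and 5.67 in vehicle and 5.91, 5.96 and 8.17 in DEX, and in none of the 6 siCtl libraries. Its p of 0.005 is the smallest that the exact test for siGATA6 can give, and the adjusted p was 1.0.

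At CAVIN1, the cavin needed for caveolae to form, the end of the gene had a peak in every library, while regions inside and beside it had no peak with BRM014. Region chr17:42421492-42422000, inside the gene, read 6.12, 8.89, 8.03 and 4.96 in DMSO and 7.5, 6.51, 7.46 and 7.53 in DEX_DMSO, with no peak in the 8 BRM014-treated libraries (adjusted p = 0.00429, exact test; 0.083 with the 50% rule). Regions chr17:42398451-42398711 and chr17:42459949-42460100 were each held in 6 of 8 libraries without BRM014 and 0 of 8 with it (adjusted p = 0.0453 each, exact test; 0.0897 with rare regions also tested). The first of these was also lost with siBRG1_siBRM, as was chr17:42363900-42364516 in STAT3, which BRM014 lost without DEX. Region chr17:42355117-42355522, also in STAT3, was lost with BRM014 in the presence of DEX.

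CAVIN1 also held the one member region gained with DEX in the presence of BRM014. At chr17:42409467-42410079, inside the gene, DMSO libraries read 16.3, 14.1, 16.8 and 16.8 and DEX_DMSO libraries 16.2, 12.8, 11.7 and 14.7. No BRM014 library had a peak, and all 4 DEX_BRM014 libraries had one, at 4.09, 5.49, 4.66 and 7.07, below every DMSO and DEX_DMSO value. The difference did not pass either test (adjusted p 0.464 for DEX and 0.0928 for BRM014, exact tests). With DEX at 2 h in siCtl cells chr17:42411292-42411961 was gained, and it was held by 3 siGATA6_DEX and 1 siGATA6_Veh libraries. Region chr17:42407607-42407786, named after its values were seen, ran the other way with BRM014: it was held by 8 of 8 BRM014-treated libraries, at 7.01 to 11.8, and by 3 of 8 libraries without it, at 4.87 to 5.32 (adjusted p = 0.0928, exact test).

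CAVIN2, which shapes the caveolar membrane, had higher peaks with DEX at its start and at other places. At 2 h in siCtl cells, 5 of its 6 regions held by all libraries of both groups had DEX values wholly above vehicle, the start among them, and 1 wholly below. Over the members these counts were 7 above and 8 below of 51 (6.95% and 10.1% of all such regions), and CAV1 and CAV2 had 1 above and 4 below of 18. In siGATA6 cells CAVIN2 had 3 above of 6, again with the start (members 7 above and 9 below of 54; 9.1% and 7.93% of all), and at 4 h in DMSO 2 above of 5 (members 2 above and 4 below of 35; 4.03% and 7.24% of all). These counts are descriptions of few regions.

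Region chr2:191894662-191895560, 47.6 kb beyond CAVIN2 in the RNA gene CAVIN2-AS1 and named after its values were seen, had a peak in all 36 libraries. Vehicle values were 10.5, 11.8 and 10.4 in siCtl_Veh and 10.6, 11.6 and 11.0 in siGATA6_Veh, and DEX values 14.8, 15.9 and 16.5 in siCtl_DEX and 15.8, 17.8 and 16.6 in siGATA6_DEX. At 4 h DMSO libraries read 8.94, 8.58, 10.0 and 9.85 and DEX_DMSO libraries 13.8, 13.8, 16.2 and 14.3. DEX was higher without overlap in these 3 settings. With BRM014 the groups overlapped, at 9.29, 12.4, 10.5 and 9.38 without and 11.6, 13.5, 11.6 and 11.2 with DEX, and over the members 0 of 19 shared regions were wholly above and 2 below (1.79% and 2.01% of all).

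The called DEX region of CAVIN2 was chr2:191877906-191878317, 30.8 kb beyond the gene in CAVIN2-AS1. No vehicle or DMSO library held it. Fold was 10.3, 11.4 and 16.7 in siCtl_DEX, 9.57, 9.47 and 9.54 in siGATA6_DEX, and 5.07, 6.02 and 8.48 in 3 of the 4 DEX_DMSO libraries, with none in DEX_BRM014 (adjusted p = 0.0267, exact test). The siGATA6_DEX values lay below the siCtl_DEX values. A weaker region, chr2:191895912-191896121, was held by 9 of 10 DEX libraries outside BRM014 and by 1 of 10 vehicle or DMSO libraries (adjusted p = 0.0716, exact test). A neighbour of the called region, chr2:191878610-191879222, had no DEX call and was called with BRM014. It read 9.32, 18.2, 10.2 and 18.9 in DMSO, 13.3, 15.2, 6.77 and 7.91 in siCtl_only, and had no peak in any BRM014, DEX_BRM014 or siBRG1_siBRM library (adjusted p = 0.00429 for BRM014, and 0.227 for siBRG1_siBRM, which did not pass, exact tests). At 2 h in siCtl cells its DEX values of 17.0, 14.9 and 16.2 lay below all vehicle values, 22.6, 20.3 and 23.6. With peak lists of equal length the adjusted p for BRM014 was 0.301. Its median fold was 16.6 over the 24 libraries that held it. Region chr2:191812230-191812631, named after its values were seen, had a median of 14.7 over all 36 libraries, and its values were wholly above those of this neighbour in siCtl_DEX, siGATA6_DEX and DEX_DMSO.

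**Figure D3:**
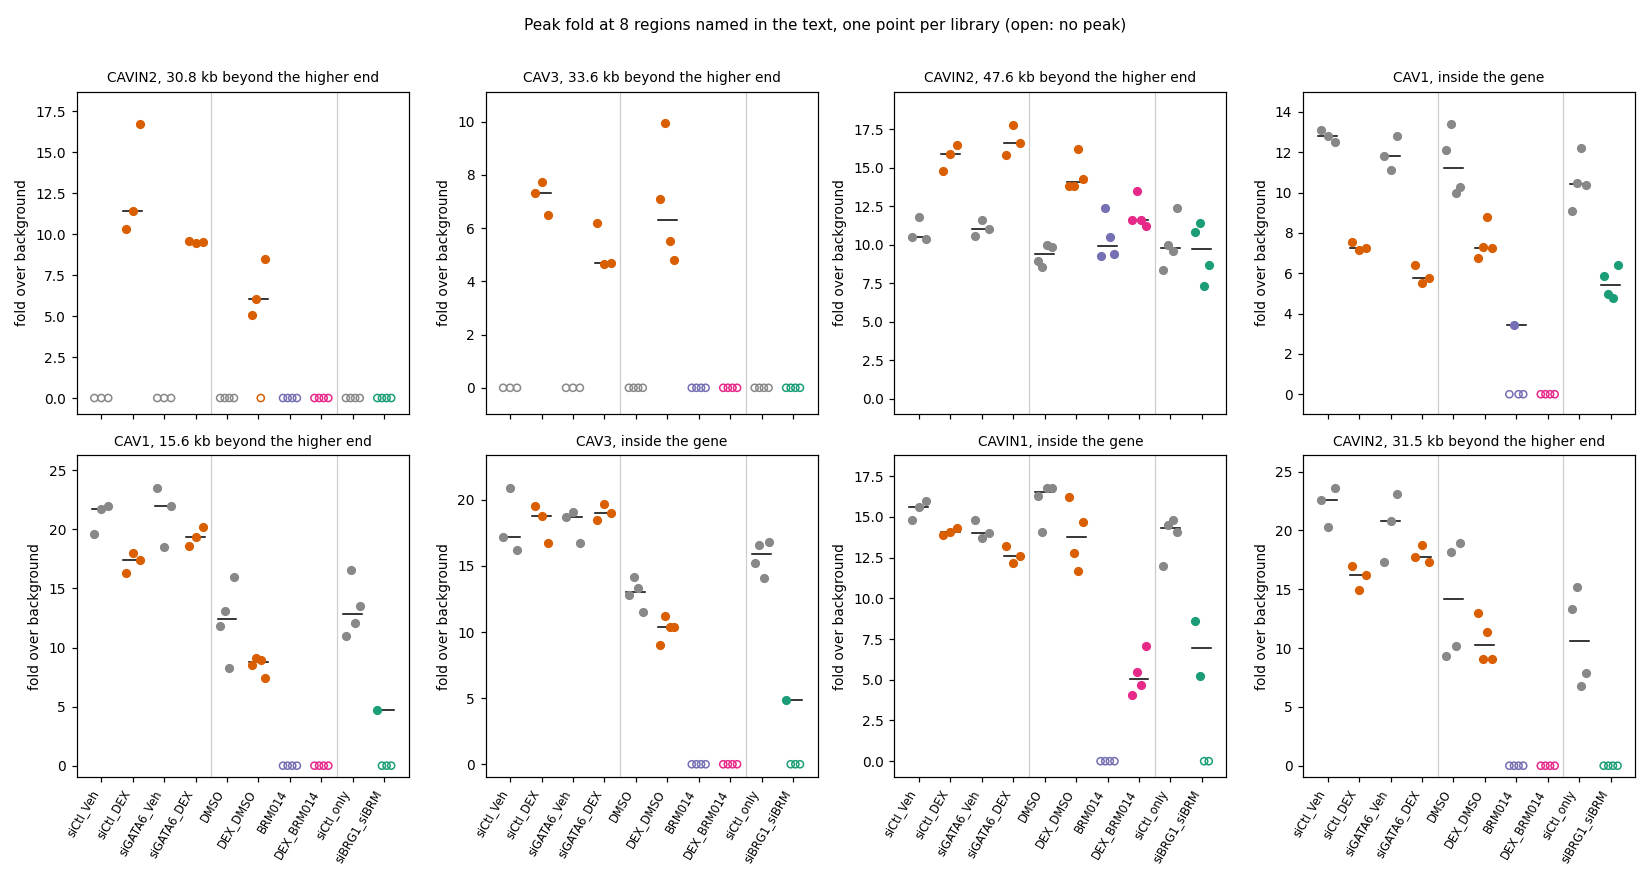
Points are the fold over background of each library at 8 regions near or inside CAV1, CAV3, CAVIN1 and CAVIN2, titled by distance from the gene, open points at 0 are libraries with no peak, and lines are medians of libraries with a peak. The first 2 panels have filled points in DEX groups alone, the CAV1 region inside the gene is lower with DEX in the 3 settings without BRM014, and the CAVIN2 region at 31.5 kb is empty with BRM014 and siBRG1_siBRM.

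CAVIN3 had 1 region called with BRM014. This region, chr11:6357292-6357564, 36.8 kb beyond the gene and nearest to SMPD1, had a fold of 16.4, 19.3, 10.0 and 13.4 in DMSO and 9.46, 8.79, 10.1 and 7.97 in DEX_DMSO and was empty in all 8 BRM014-treated libraries (adjusted p = 0.00429, exact test). With siBRG1_siBRM 3 of 4 libraries held it, at 8.55, 4.33 and 5.4, below all siCtl_only values of 13.8 to 16.2. Next to the gene, chr11:6321414-6321759 was gained with siGATA6 in DEX and lost with BRM014 in DEX, at a fold of 2.38 to 5.08. With siBRG1_siBRM it ran the other way, held by 3 of 4 libraries (3.75, 4.23 and 3.92) against 0 of 4 siCtl_only libraries. Region chr11:6322100-6322351 was lost with DEX in siCtl cells, from 3.85, 3.86 and 3.93, while 2 of 3 siGATA6_DEX libraries held it. Its highest region, chr11:6363148-6363364, was held by all 36 libraries at a median of 24.6.

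Libraries held fewer member regions with BRM014 and siBRG1_siBRM, as they did of all regions; these numbers were not tested. DMSO libraries held 53.0 ± 4.55 member regions (SD, n = 4) and BRM014 libraries 31.5 ± 4.93, a change of -40.6%, against -43.4% for all regions. With DEX the numbers were 58.0 ± 2.16 and 35.5 ± 3.42 (-38.8%, against -44.2%), and with siBRG1_siBRM 52.0 ± 3.92 and 35.5 ± 10.6 (-31.7%, against -40.7%). By locus, BRM014 changed CAV3 from 7.0 ± 0.816 to 2.25 ± 0.5 regions (-67.9%), CAVIN2 from 6.5 ± 0.577 to 3.0 ± 0.816 (-53.8%), CAVIN1 from 13.5 ± 1.73 to 7.75 ± 1.26 (-42.6%), CAV1 and CAV2 from 17.5 ± 3.0 to 12.0 ± 3.56 (-31.4%), and CAVIN3 from 8.5 ± 0.577 to 6.5 ± 0.577 (-23.5%). Differences between loci were not tested. DEX at 2 h changed the member total from 69.0 ± 4.36 to 74.0 ± 1.0 in siCtl cells and from 70.7 ± 5.69 to 81.0 ± 2.65 in siGATA6 cells (n = 3 each). These are changes of 7.25% and 14.6%, against 0.835% and 5.58% for all regions.

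**Figure D4:**
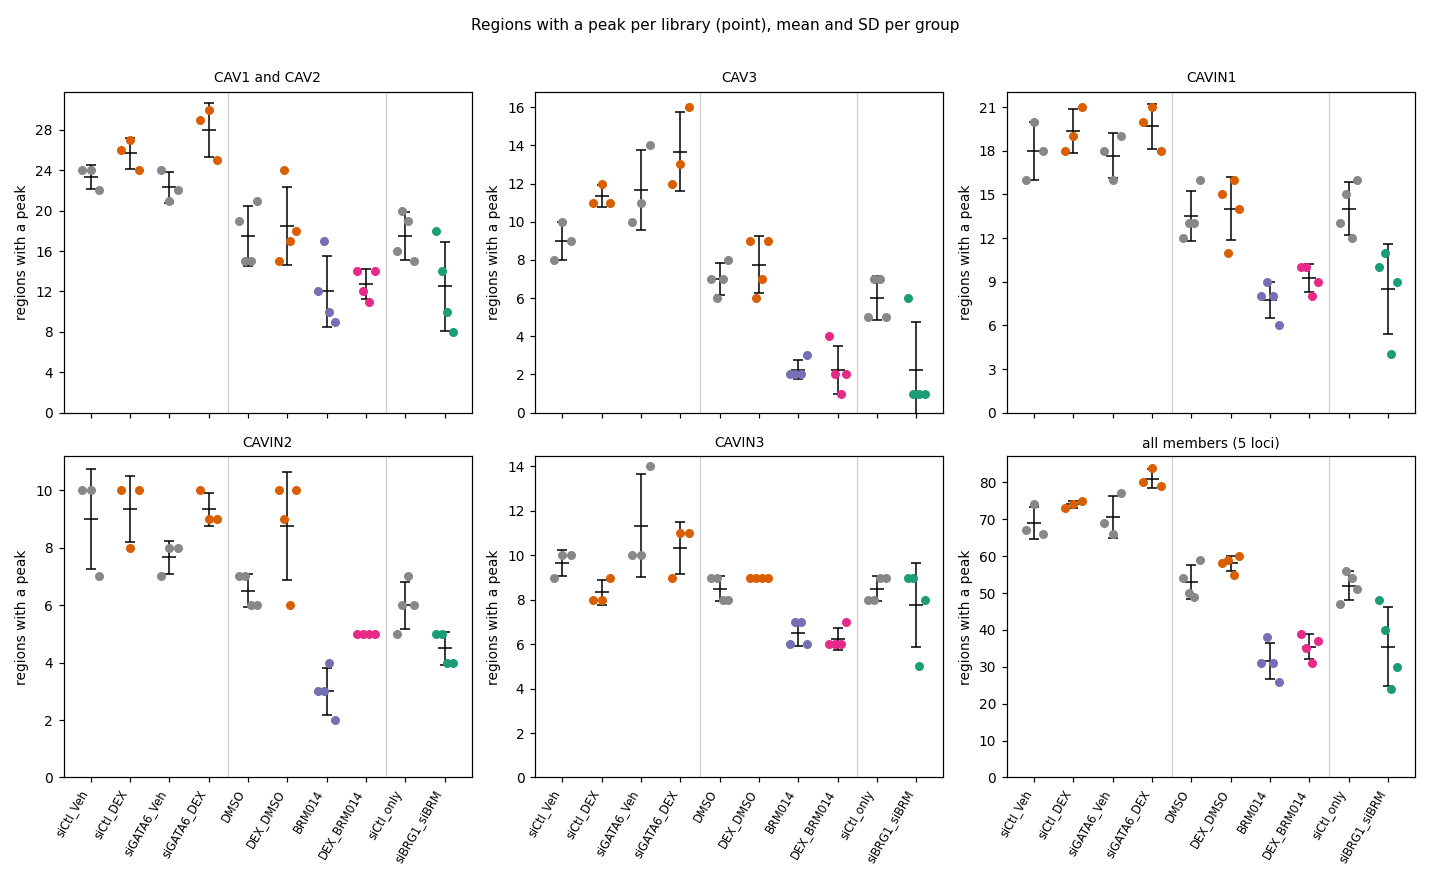
Points are the number of regions with a peak in each library, by locus and for all 137 member regions, with the group mean and SD. CAV3 has 6 to 8 regions in DMSO and 2 or 3 in BRM014, and CAVIN3 8 or 9 and 6 or 7.

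Among regions of other caveola genes, the share held in fewer libraries with BRM014 was below the share of all regions. A list of 12 genes, from the muscle cavin CAVIN4, the neck ATPases EHD1, EHD2 and EHD4, the membrane-bending PACSIN2 and PACSIN3, the scission GTPase DNM2, the actin crosslinker FLNA, the kinases SRC, ABL1 and FYN and the caveolar enzyme NOS3, had 434 regions. With BRM014, 21 of 174 tested regions were held in fewer libraries (12.1%, against 22.4% of all) and 0 in more (0.116% of all). The 21 lay at 7 genes: 5 of 27 tested regions at ABL1, 4 of 27 at FLNA and 3 of 22 at EHD2. PACSIN3 had 3 of 17, SRC 3 of 8, EHD1 2 of 17 and EHD4 1 of 6. With DEX, 4 of 255 were held in more (1.57%, against 1.45% of all) and 0 in fewer (0.0455% of all). PACSIN2 had 3 of these, from 24 tested regions, and FLNA 1, from 33. With siGATA6, 0 of 245 were called in the exact test (0% of all), and with siBRG1_siBRM 0 of 137 (0% of all). By the all-against-none rule, DEX at 2 h gained 9 of 308 list regions in siCtl cells (2.92%, against 2.52% of all). In siGATA6 cells it gained 12 of 310 (3.87%, against 2.36%), and at 4 h in DMSO 5 of 266 (1.88%, against 1.56%). PACSIN2, with 54 regions, had 6, 5 and 3 of these.

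The pattern of CAV1 across libraries, taken as the share of its regions held minus the share of all regions held, was compared with 16091 protein-coding genes. Beyond 500 kb, the highest Pearson r over the 36 libraries were RNF126 at 0.612, LRFN4 at 0.598 and PPIAP60 at 0.592. For CAVIN1, CPSF4L at 0.689 and AGPAT3 at 0.683 were among the highest. CAV1 and CAVIN1 had an r of 0.101 with each other, while CAV1 and CAV2, which share 28 regions, had 0.812. The libraries share experiments and depth, and these values are descriptions.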

How the data were processed

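ATAC-seq measured open chromatin in 36 BT549 libraries, grouped by their titles and treatment labels. Each library has its own peak list, called without pooling. The submitters' processing notes name MACS2, HOMER, SAMtools and bcl2fastq and the build GRCh38 (hg38). For the aligner, shifting of insertion sites, duplicates and caller parameters, the tool or setting is not given in the sources used here. Each peak line that the authors deposited holds a fold enrichment at its summit (a ratio to background), −log10 p and −log10 q values (lowest −log10 q near 1.3) and the summit's offset. Per the labels, about 25 M paired reads of 50 bp were aimed at for each library; the depth reached is unknown.

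Distinct peaks of chromosomes 1 to 22 plus X were merged over all libraries with Python 3.11.15, numpy 2.4.6, pandas 2.3.3 and SciPy 1.17.1. Presence was compared by the exact stratified permutation test and by the all-against-none rule, and the script was tested on simulated data. The background level was recovered from the fold and −log10 p of 3000 weak peaks per library with a Poisson model (tolerance 0.002 in the reads piled up), as the lowest level shared by at least 10% of them. Regions were named by a rule: gene starts or ends, the highest region of a locus, and called regions, up to 6 per locus, comparison and direction. The members, lists and tests were chosen with earlier results of these data known. No 2 libraries shared more than 1.18% of identical peaks. Alternatives were −log10 q of at least 5, equal list lengths (37184 peaks), peaks covering at least 50% of a region, merging within an experiment, a 10 kb distance, no filter on rare regions, leaving out DEX with BRM014, leaving out each replicate, and a replicate block. Gene positions and promoters are from RefSeq (GRCh38.p14), whose table gave no exons, so exon, intron or UTR is not stated. Some genes of the marker list and of the comparison of patterns are not reported here.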

Additional observations from a re-analysis of the deposited data

Results flagged for a closer look

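In each of 36 combinations of a region set and a group of 4 libraries, the number of regions held was checked for a library far from the others. The rule was a gap over range above Dixon's 95% critical value. How often chance passes this rule is not known for small counts with ties. When the other libraries tie, any difference is flagged, even of 1 region. One library stood apart in 3 of them. With siBRG1_siBRM, replicate 1 held 6 CAV3 regions where the others held 1 each, and it also had the most peaks of its group, 66607. In BRM014, replicate 4 held 3 CAV3 regions where the others held 2. In DEX_BRM014, replicate 4 held 7 CAVIN3 regions where the others held 6. The last 2 are differences of 1 region. Their causes were not tested.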

How the results depend on the processing

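Merging peaks within an experiment changed no member count. The balance of gained and lost regions turned for siGATA6 in DEX and DEX with BRM014 on equal list lengths, and for DEX in DMSO with peaks covering at least 50%. The cause of the changes below was not tested, and for most of these counts the share of all regions called is not given. With −log10 q of at least 5, DEX over its settings gave 0 regions in place of 2, DEX in siGATA6 gained 2 in place of 5, siGATA6 in vehicle gained 0 and lost 0 in place of 1 each, siGATA6 in DEX gained 1 in place of 2, and DEX gained 1 in DMSO and 0 with BRM014 in place of 3 and 1. With equal list lengths, DEX over its settings gave 0, BRM014 gave 6 lower (10.2% of all) and 1 higher, DEX gained 1 and lost 1 in siCtl, gained 1 in siGATA6, gained 0 in DMSO, and gained 0 and lost 1 with BRM014. On the same lists, siGATA6 lost 2 in vehicle and 1 in DEX and gained 0 in both, and BRM014 gained 1 and lost 4 in place of 8 without DEX, and gained 1 and lost 3 in place of 14 with DEX. With peaks covering at least 50% of a region, DEX over its settings gave 0, BRM014 gave 1 higher, DEX lost 1 in siCtl, 1 in siGATA6 and 1 in DMSO and gained 0 in DMSO, siGATA6 gained 0 and lost 0 in vehicle and gained 1 and lost 1 in DEX, BRM014 with DEX gained 1 and lost 5, and siBRG1_siBRM lost 2. Within 10 kb (63 regions), DEX over its settings gave 0 and BRM014 6 of 29 (22.4% of all regions tested). DEX gained 4 in siCtl, 2 in siGATA6 and 1 in DMSO, and siGATA6 gained 0 in vehicle and 1 in DEX. BRM014 lost 4 without and 7 with DEX, and siBRG1_siBRM lost 1.

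Leaving out each replicate in turn gave 2 to 3 regions for DEX over its settings, 11 to 13 lower and 0 to 1 higher for BRM014, and 0 for siGATA6 and siBRG1_siBRM. Gained regions ranged from 6 to 8 and 5 to 9 for DEX in siCtl and siGATA6, 3 to 5 and 1 to 2 in DMSO and BRM014, 1 to 2 and 2 to 3 for siGATA6 in vehicle and DEX, and 0 to 1 for BRM014 with DEX and siBRG1_siBRM. Lost regions ranged from 3 to 4 and 0 to 2 for DEX in siCtl and siGATA6, 1 to 2 and 0 to 2 for siGATA6, 8 to 11 and 14 to 17 for BRM014, and 4 to 10 for siBRG1_siBRM, the 10 being without replicate 1 of siBRG1_siBRM. With fewer libraries the all-against-none rule asks less.

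Replicate numbers paired libraries weakly: correlations of same-numbered libraries ran from 0.00996 to 0.127, from -0.0323 to 0.0909 and from -0.0133 to 0.0482 in the 3 experiments, and 11 of 12, 8 of 16 and 6 of 8 libraries correlated best with their own number. With a replicate block DEX and BRM014 gave 0 member regions in place of 2 and 11, and 0 calls over all regions. The block used an exact sign test of same-numbered pairs, whose smallest possible p is larger than that of the main test. The lack of calls thus cannot decide whether pairing alters the result.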
